A study of Mus musculus with 12 samples.

Results

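Interferon response genes are the genes that cells switch on after interferon or viral RNA is sensed, and 38 of them were followed here by their gene symbols in a table of 55385 genes. All 38 symbols were found, each in 1 row. The table holds total RNA sequencing of C2C12, a mouse myoblast line that fuses into multinucleate myotubes when differentiated. There were 3 libraries of cells differentiated into myotubes for 7 days and 3 libraries of the undifferentiated control myoblasts, with no other agent, genotype or allele named for either group. The series also holds small RNA libraries of mouse embryonic stem cells, not used here. All C2C12 libraries come from 1 cell line. Nothing in the labels states whether replicates were grown as separate cultures, and the p-values therefore reflect library-to-library spread only, which may be technical.

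Type I interferons bind the receptor of Ifnar1 and Ifnar2, and the Janus kinases then activate STAT proteins. STAT2 joins IRF9 in the complex that binds the interferon-stimulated response element, an ISRE, in the promoters of target genes. Type II interferon acts through Ifngr1 and Ifngr2 and is known for inducing Irf1, guanylate binding proteins and antigen presentation. In cells, viral RNA is sensed by RIG-I, the product of Ddx58, by MDA5 from Ifih1 and by Toll-like receptor 3.

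Libraries held 18335785 to 31119511 counts in myotubes and 22200097 to 54083215 counts in myoblasts. The 9 myotube markers examined, among them Myog, Ckm and Acta1, were all higher in myotubes, and the 9 cycling cell markers were all lower. Myotube replicate 1 stood apart from the other myotube libraries. Its summed myotube markers were at 10341 CPM (counts scaled to a common library size), against 20351 and 24176 CPM in replicates 2 and 3. Its summed cycling markers were at 1006 CPM, against 358 and 279 CPM in the other myotubes. A list of 8 fibroblast and adipocyte markers had Thy1 and Adipoq at 0 in all libraries. It summed to 2083 CPM in that library, 564 and 635 CPM in the other myotubes, and 57.8 to 64.7 CPM in myoblasts. Dcn alone was at 1677, 321 and 339 CPM in myotube replicates 1, 2 and 3. Of the list's 4 tested genes, 3 were higher and 1, Pparg, was lower in myotubes. The 6 myoblast markers summed to 1244 CPM in myotube replicate 1, and to 3111 and 2676 CPM in replicates 2 and 3. They summed to 667 to 1091 CPM in myoblasts, and 1 was called higher and 1 lower in myotubes. Of 11 leukocyte and macrophage markers, Tyrobp and Cd3e were at 0 everywhere and the pan-leukocyte gene Ptprc had 0 counts in myotubes. That list summed to 6.42 to 12.02 CPM in myotubes and 6.89 to 12.8 CPM in myoblasts, and Csf1r was the 1 gene of its 3 tested that was called, as higher. Results below are given with and without myotube replicate 1 where they rest on it.

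Of the 38 genes, 31 passed the filter on low counts. In myotubes 14 rose and 1 fell, where 20.5% of the 15932 genes tested were called higher and 19.6% lower (edgeR quasi-likelihood test, adjusted p under 0.05). The share called higher among the tested members was 45.2%, and the share called lower was 3.23%. The median log2 fold change, myotube over myoblast, was 1.07 over the 31 members and 0.06 over all genes tested. In bulk samples fewer cells of a type and less RNA per cell cannot be told apart. A positive value was found for 28 of the 31, and for 8314 of the 15932. The groups did not overlap, with all myotube libraries higher, for 17 members, against a background of 28.7% of genes, and with all lower for Oasl1 and Trim25, against 27.2%. Leaving out myotube replicate 1 gave 10 higher and 1 lower (background 20.5% and 21%) and a median of 0.66. A positive value was then found for 23 of the 31, and for 8417 of the 16722 genes tested. Leaving out myoblast replicate 2 or 3 gave 9 higher and 1 lower in each case (background 14.8% and 12.9%, and 14.6% and 13.1%). Without myotube replicate 2 or 3 there were 13 higher and 1 lower (background 16% and 15.7%, and 14.7% and 13.1%), and without myoblast replicate 1 there were 13 higher and 0 lower (background 22% and 19.8%), since Oasl1 was then not tested. The replicate block gave 14 higher and 1 lower (background 22.4% and 20.9%). With library size alone as the scaling 12 were higher and 1 lower (background 16.8% and 23.1%).

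The 7 genes that did not pass the filter include several genes widely used as markers of an interferon response. The oligoadenylate synthetase genes Oas1a, Oas2 and Oas3, whose products make the activator of RNase L, had 0, 0 and 1 counts summed over the myotube libraries and 4, 0 and 4 counts over the myoblasts. Mx1, an antiviral dynamin-like GTPase, had 2 and 7 counts in myotubes and myoblasts. Rsad2 (viperin) had 5 counts in myotubes and 12 in myoblasts, and Usp18, which removes ISG15 from proteins and dampens receptor signalling, had 1 and 6. Ifi44 had 7 counts in myotubes and 1 in myoblasts, a CPM ratio of 11.6 (95% counting interval from 1.49 to 522). That interval leaves out the spread between libraries, and the myotube counts were 4, 3 and 0 in replicates 1, 2 and 3. For Rsad2 the ratio was 0.69 (0.19 to 2.10), so no difference was detectable at this depth.

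Promoter sequences are shown for the members called higher whose window holds the ISRE core, because this element is the shared feature of textbook interferon targets. Windows ran from 250 bases before to 50 after a start of the gene, which was not always its outermost one (RefSeq, GRCm38.p6). The core searched in them was GAAA, any 2 bases and GAAA again, on both strands. It was present in 15 of the 30 members with a window, or 50% of them, and in 3.99% of all 27025 genes with one. Among members called higher it was present in 4 of 10, among tested members that were not called in 8 of 15, and among members below the filter in 3 of 4, while the window of Oasl1, called lower, did not hold it. Windows of 8 members, Parp9, Parp14, Mx1, Mx2, Oas2, Usp18, Dhx58 and Ifi27, were not examined. The lines below run 5′ to 3′ on the gene's strand, and capitals mark the core, which in each is read from the opposite strand, as TTTC, 2 bases and TTTC. For Ifit3, Gbp2 and Gbp7 the 250 bases before the start are given, and for Ddx58, whose match begins at base 3 of the transcript, 30 bases around it.
Ifit3, chr19:34583279-34583528, plus strand: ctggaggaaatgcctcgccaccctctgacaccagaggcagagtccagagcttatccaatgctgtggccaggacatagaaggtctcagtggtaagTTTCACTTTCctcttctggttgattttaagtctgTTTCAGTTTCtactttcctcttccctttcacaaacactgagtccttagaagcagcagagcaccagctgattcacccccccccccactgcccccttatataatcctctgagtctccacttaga
Gbp2, chr3:142620413-142620662, plus strand: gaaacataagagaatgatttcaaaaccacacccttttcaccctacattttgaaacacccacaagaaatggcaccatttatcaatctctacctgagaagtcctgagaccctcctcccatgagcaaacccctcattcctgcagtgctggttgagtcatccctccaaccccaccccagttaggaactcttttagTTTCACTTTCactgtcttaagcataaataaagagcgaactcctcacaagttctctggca
Gbp7, chr3:142530086-142530335, plus strand: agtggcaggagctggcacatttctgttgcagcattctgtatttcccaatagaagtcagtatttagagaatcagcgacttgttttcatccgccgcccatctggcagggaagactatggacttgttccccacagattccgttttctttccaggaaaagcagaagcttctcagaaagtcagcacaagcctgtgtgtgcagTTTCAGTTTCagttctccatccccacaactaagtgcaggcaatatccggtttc
Ddx58, chr4:40239804-40239833, minus strand: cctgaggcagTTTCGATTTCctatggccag

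In Gbp2 and Gbp7 the core began 59 and 53 bases before the start. Ifit3 held a pair of cores, the first 156 bases before the start used for its window. That start lies inside the full span of Ifit3, 34583119 to 34588982 on chromosome 19. A gamma-activated element, TTCNNNGAA, whose reverse complement is the same pattern, was present in 7 of the 30 members and in 9.55% of all genes, with Gbp7 the member called higher among them. These matches are letters in a window and not measured binding.

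Among the transcription factors, Irf7 rose and the other members did not pass the test. IRF7 amplifies the response by driving interferon genes and is itself induced by it. Irf7 was at 3.48, 0.978 and 0.869 CPM in myotube replicates 1, 2 and 3, against 0.368, 0.438 and 0.0469 CPM in the myoblast replicates. The groups did not overlap, the log2 fold change was 2.54 ± 0.78 (SE), and the adjusted p was 0.0333. It was 1.58 without myotube replicate 1 (adjusted p = 0.103), and dropping myoblast replicate 1, 2 or 3 ended the call too (adjusted p = 0.0663, 0.064 and 0.0806). Irf7 rests on 15 to 90 counts per myotube library and 1 to 22 per myoblast library.

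Stat2 was at 31.7, 21.5 and 32.4 CPM in myotubes, against 25.8, 16.8 and 12.8 CPM in myoblasts (log2 fold change 0.62 ± 0.29, adjusted p = 0.12). The groups overlapped, and only without myoblast replicate 1 was Stat2 called, at 0.93 (adjusted p = 0.0314). Irf9, its DNA-binding partner, was at 5.03, 7.50 and 7.65 CPM in myotubes, against 6.35, 5.21 and 5.39 CPM in myoblasts, with myotube replicate 1 below all the others (0.25 ± 0.28, adjusted p = 0.501). Irf1, a primary target of type II interferon, was at 58.7, 34.8 and 42.4 CPM in myotubes, against 39.8, 35.6 and 26.8 CPM in myoblasts, again with overlap (0.41 ± 0.24, adjusted p = 0.207).

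Of the 5 genes for sensing viral RNA, Ddx58 and Tlr3 rose. Ddx58, which encodes RIG-I, was at 49.8, 18.4 and 21.4 CPM in myotubes, against 11.3, 9.84 and 5.20 CPM in myoblasts. All myotube libraries lay above all myoblast libraries, with myotube replicate 1 far above the rest (log2 fold change 1.76 ± 0.44, adjusted p = 0.0154). Without that library Ddx58 remained called at 1.15 (adjusted p = 0.016). Tlr3, the endosomal sensor of double-stranded RNA, was at 8.39, 3.98 and 4.81 CPM in myotubes, against 2.29, 2.82 and 3.00 CPM in myoblasts (1.08 ± 0.37, adjusted p = 0.0482). Its call was lost when any 1 of the 6 libraries was left out (adjusted p = 0.141, 0.0513 and 0.0847 without myotube replicates 1, 2 and 3, and 0.103, 0.115 and 0.097 without myoblast replicates 1, 2 and 3). The replicate block also ended it (1.02, adjusted p = 0.0703), as did scaling by library size alone (adjusted p = 0.0716).

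Ifih1, which encodes MDA5, was at 6.65, 2.18 and 1.85 CPM in myotubes, against 1.57, 1.17 and 0.891 CPM in myoblasts. These groups did not overlap either, but the gene missed the threshold (log2 fold change 1.54 ± 0.56, adjusted p = 0.0586). Adding the replicate block brought it past the threshold (1.37, adjusted p = 0.0344), as did leaving out myotube replicate 3 (1.82, adjusted p = 0.0487). DESeq2, and edgeR with no filter on low counts, also called Ifih1 higher. It stood at 0.70 without myotube replicate 1 (adjusted p = 0.241). Dhx58 encodes LGP2, a helicase of the same family that modulates the other sensors. It was at 3.25, 0.619 and 0.522 CPM in myotubes, against 0.802, 0.682 and 0.750 CPM in myoblasts, so that myotube replicate 1 alone lay above the myoblasts (0.98 ± 0.71, adjusted p = 0.294, and -0.39 without that library). Trim25, a ubiquitin ligase that acts on RIG-I, was at 19.3, 23.8 and 24.1 CPM in myotubes, against 30.1, 25.7 and 27.6 CPM in myoblasts. All its myotube values were the lower ones, by a margin that missed the threshold (-0.31 ± 0.17, adjusted p = 0.181).

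**Figure D1:**
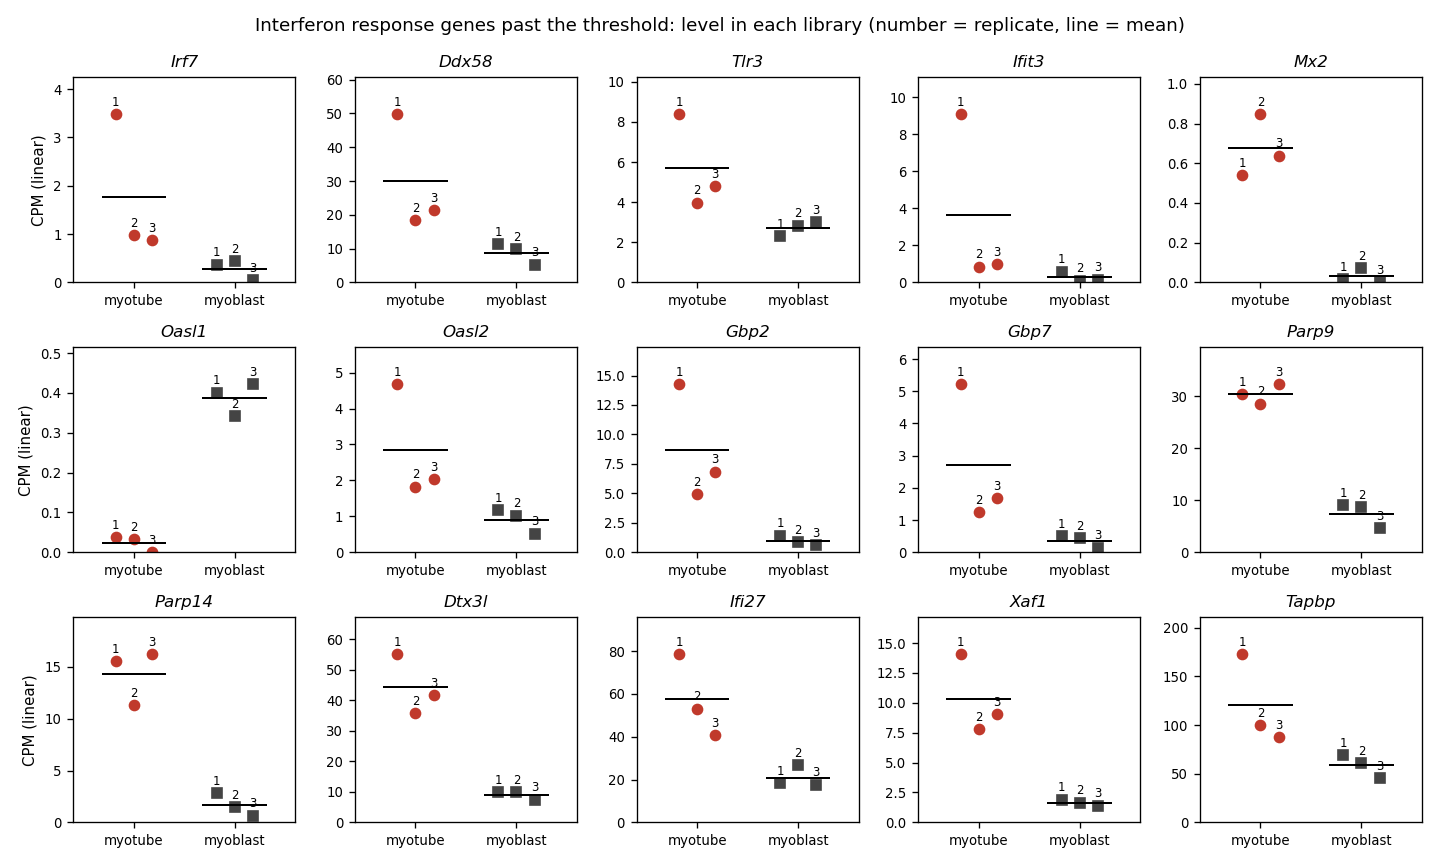
Level of each of the 15 members past the threshold in every library, as CPM on a linear axis that starts at 0, with myotubes on the left and myoblasts on the right. Numbers are replicates and lines are group means, and the myotube points lie above the myoblast points in 14 panels and below them for Oasl1.

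Among 14 antiviral effectors 9 were tested, of which Ifit3, Mx2 and Oasl2 rose and Oasl1 fell. IFIT proteins bind viral RNA and block its translation. Ifit3 was at 9.08, 0.847 and 0.985 CPM in myotubes, against 0.568, 0.0974 and 0.141 CPM in myoblasts. A single library, myotube replicate 1, held most of this difference, at 235 counts against 26 and 17 in the other myotubes (log2 fold change 3.64 ± 1.12, adjusted p = 0.0335). Without it the value was 1.62 (adjusted p = 0.118), and without myoblast replicate 1 it was 4.93 (adjusted p = 0.0354). Neither myoblast replicate 2 nor replicate 3 could be left out without losing the call (adjusted p = 0.104 and 0.105), and limma-voom gave an adjusted p of 0.0559. Ifit3 has a near-identical copy, Ifit3b, so its counts are uncertain.

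Ifit2 and Ifit1 lie beside Ifit3 on chromosome 19, within 34550550 to 34650009 (GRCm38), and neither passed the test. Ifit2 averaged 25.5 ± 9.99 CPM in myotubes and 22.9 ± 5.44 CPM in myoblasts (SD, n = 3 each). Ifit1 averaged 0.599 ± 0.3001 CPM in myotubes and 0.671 ± 0.777 CPM in myoblasts (SD, n = 3 each), and it overlaps Ifit1bl1 by 9121 bases. The 3 neighbours therefore had adjusted p of 0.0335, 0.705 and 0.855 in the order Ifit3, Ifit2, Ifit1.

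Mx2, the paralog of Mx1 beside it on chromosome 16, was at 0.541, 0.847 and 0.638 CPM in myotubes, against 0.0167, 0.0731 and 0 CPM in myoblasts. These values are 14, 26 and 11 counts in myotubes and 1, 3 and 0 counts in myoblasts, and myotube replicate 1 was the lowest of the myotubes. The log2 fold change of 4.22 ± 0.73 (adjusted p = 0.00304) had the largest size among the tested members, was 4.35 without myotube replicate 1 (adjusted p = 0.00323), and was 5.41 without myoblast replicate 2 (adjusted p = 0.00643). Mx1 itself is the gene described above with 2 and 7 counts.

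Oasl1 and Oasl2 stand side by side on chromosome 5 (114896926 to 114937911, GRCm38) and moved in opposite directions. Both encode OAS-like proteins, and mouse OASL1 is known to restrain translation of Irf7 mRNA. Oasl1 was at 0.0387, 0.0326 and 0 CPM in myotubes, against 0.401, 0.341 and 0.422 CPM in myoblasts, that is 1, 1 and 0 counts against 24, 14 and 9 (log2 fold change -3.67 ± 0.70, adjusted p = 0.00458). Without myoblast replicate 1 it no longer passed the filter on low counts. Oasl2 was at 4.68, 1.83 and 2.03 CPM in myotubes, against 1.17, 1.02 and 0.516 CPM in myoblasts (1.63 ± 0.52, adjusted p = 0.0387). The groups were separate for both genes. The Oasl2 call was lost without myotube replicate 1 (1.04, adjusted p = 0.124) or 3 (1.80, adjusted p = 0.0576) and without myoblast replicate 2 (1.70, adjusted p = 0.089) or 3 (1.36, adjusted p = 0.117), and with library size alone (1.48, adjusted p = 0.058).

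The remaining effectors showed no call. Isg15, the ubiquitin-like modifier, averaged 0.935 ± 0.396 CPM in myotubes and 0.380 ± 0.256 CPM in myoblasts (SD, n = 3 each), from 12 to 36 counts per myotube library and 2 to 35 per myoblast library (adjusted p = 0.15). Eif2ak2, the double-stranded RNA-activated kinase PKR, averaged 45.8 ± 7.37 CPM in myotubes and 42.0 ± 3.72 CPM in myoblasts (SD, n = 3 each, adjusted p = 0.599), and it overlaps the pseudogene Gm6548. Bst2 (tetherin), which holds budding virions at the cell surface, was at 4.64, 3.81 and 3.83 CPM in myotubes, against 3.23, 2.65 and 2.58 CPM in myoblasts. Its groups did not overlap, yet the difference missed the threshold (log2 fold change 0.53 ± 0.31, adjusted p = 0.193).

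Guanylate binding proteins are large GTPases that attack membranes around pathogens, and Gbp2 and Gbp7 rose. Gbp2 was at 14.3, 4.95 and 6.84 CPM in myotubes, against 1.40, 0.877 and 0.610 CPM in myoblasts. The lowest myotube library lay well above the highest myoblast library (log2 fold change 3.14 ± 0.52, adjusted p = 0.00247, and 2.54 without myotube replicate 1, adjusted p = 0.00218). Gbp7 was at 5.22, 1.24 and 1.68 CPM in myotubes, against 0.501, 0.438 and 0.141 CPM in myoblasts (2.84 ± 0.70, adjusted p = 0.0139). It was 1.90 without myotube replicate 1, at an adjusted p of 0.0296. Gbp3, which lies between them on chromosome 3, averaged 0.777 ± 0.467 CPM in myotubes and 0.449 ± 0.129 CPM in myoblasts (SD, n = 3 each) and missed the threshold, at 0.78 on the log2 scale (adjusted p = 0.27). Its myotube values were 1.31 CPM in replicate 1 and 0.554 and 0.464 CPM in replicates 2 and 3, and without replicate 1 the log2 fold change was 0.15 (adjusted p = 0.841). These paralogs share sequence, so reads could be split among them.

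The ADP-ribosyltransferase genes Parp9 and Parp14 and their ubiquitin ligase partner Dtx3l rose. Spread among myotubes was small for Parp9 (mean 30.4 CPM, SD 1.88). It was larger relative to the mean for Parp14 (14.4 CPM, SD 2.66) and Dtx3l (44.3 CPM, SD 9.88). DTX3L and PARP9 form a complex, and PARP14 is known as a regulator of cytokine responses. Dtx3l was at 55.2, 35.9 and 41.8 CPM in myotubes, against 9.94, 9.84 and 7.41 CPM in myoblasts (log2 fold change 2.28 ± 0.23, adjusted p = 0.000308). Parp9 was at 30.4, 28.5 and 32.3 CPM in myotubes, against 9.06, 8.62 and 4.595 CPM in myoblasts (2.02 ± 0.27, adjusted p = 0.00102). Parp14 was at 15.5, 11.3 and 16.2 CPM in myotubes, against 2.84, 1.44 and 0.656 CPM in myoblasts (3.08 ± 0.49, adjusted p = 0.00211). No library of one group reached the other group for any of these genes. Without myotube replicate 1 the values were 2.07 for Dtx3l, 1.995 for Parp9 and 2.98 for Parp14, and without myoblast replicate 1 Parp14 stood at 3.72 (adjusted p = 0.00236).

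All 3 genes lie on chromosome 16 between 35831892 and 35972621 (GRCm38). Dtx3l and Parp9 overlap by 558 bases, and 5871 bases of Parp9 overlap the long non-coding RNA Gm15564, which had 7318 counts in myotubes and 14891 in myoblasts. Whether the counting used strand is not stated, and the values from shared stretches are therefore uncertain. Parp12, on another chromosome, binds RNA and ADP-ribosylates proteins. It averaged 26.0 ± 6.24 CPM in myotubes and 21.6 ± 4.59 CPM in myoblasts (SD, n = 3 each), with overlap between groups (adjusted p = 0.397).

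Among the regulators and other induced genes, Ifi27 and Xaf1 rose. Xaf1, whose product binds the apoptosis inhibitor XIAP, was at 14.1, 7.79 and 9.04 CPM in myotubes, against 1.91, 1.66 and 1.41 CPM in myoblasts (log2 fold change 2.63 ± 0.34, adjusted p = 0.00084). Ifi27, which encodes a small membrane protein, was at 78.5, 53.0 and 40.6 CPM in myotubes, against 18.3, 26.6 and 17.6 CPM in myoblasts (1.46 ± 0.28, adjusted p = 0.00497). Both genes separated the groups, with myotube replicate 1 the highest, and both remained called without it (2.31 and 1.15, adjusted p = 0.000585 and 0.00364). Ifi27 overlaps its paralog Ifi27l2a, which had 122 counts in myotubes and 28 in myoblasts. Ifi35 averaged 15.3 ± 0.395 CPM in myotubes and 15.0 ± 2.13 CPM in myoblasts (SD, n = 3 each, adjusted p = 0.925).

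**Figure D2:**
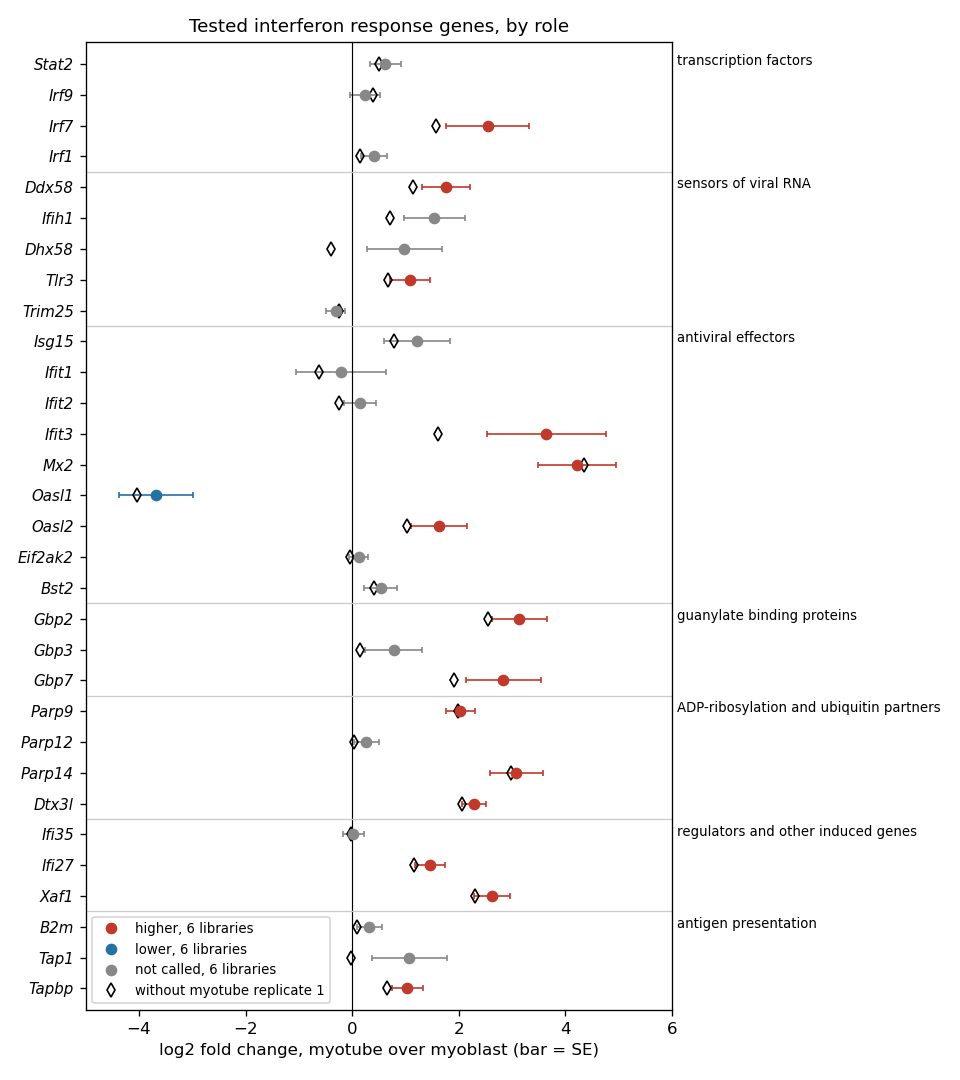
Log2 fold change of the 31 tested members, myotube over myoblast, by role, with bars of 1 SE and colours for calls at an adjusted p under 0.05. Open diamonds give the value without myotube replicate 1, which for Ifit3 is 1.62 instead of 3.64, while Parp9 is at 1.995 and Mx2 at 4.35.

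For antigen presentation, Tapbp rose and B2m and Tap1 did not pass the test. Tapasin, the product of Tapbp, holds class I molecules at the peptide transporter. Tapbp was at 173, 99.9 and 87.7 CPM in myotubes, against 69.4, 60.8 and 45.7 CPM in myoblasts (log2 fold change 1.04 ± 0.29, adjusted p = 0.0225). The groups were separate, and the value was 0.66 without myotube replicate 1 (adjusted p = 0.0308). Tapbp was not called without myoblast replicate 2 (1.05, adjusted p = 0.0691) or 3 (0.87, adjusted p = 0.0836). Tap1, a transporter subunit, averaged 4.07 ± 3.67 CPM in myotubes and 1.91 ± 1.176 CPM in myoblasts (SD, n = 3 each). Its myotube values were 8.31 CPM in replicate 1 and 1.99 and 1.91 CPM in replicates 2 and 3 (1.07 ± 0.70, adjusted p = 0.252, and -0.02 without replicate 1). B2m, the light chain of class I molecules, averaged 291 ± 71.0 CPM in myotubes and 232 ± 41.5 CPM in myoblasts (SD, n = 3 each, adjusted p = 0.294).

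Per length, as CPM divided by gene length in kilobases (RPKM), B2m was the highest member in both groups, at a mean of 338 RPKM in myotubes and 270 RPKM in myoblasts. Ifi27 and Tapbp followed, at 39.1 and 33.1 RPKM in myotubes and 14.2 and 16.2 RPKM in myoblasts. Dtx3l stood in place 7 of 38 in myotubes (7.73 RPKM) and place 12 in myoblasts (1.58 RPKM). Uncalled genes such as Irf1, Eif2ak2 and Ifi35 filled places 4 to 6 in both groups, in changing order.

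Myotube replicate 1 was the highest of the myotube libraries for 25 of the 31 tested members, against a background of 42.3% of genes, and the lowest for Irf9, Trim25 and Mx2, against 42.7%. Its level was a median of 1.84 times the mean of replicates 2 and 3 over these members and 0.989 times over all genes tested. The ratio was 9.91 for Ifit3, 5.69 for Dhx58, 4.26 for Tap1, 3.77 for Irf7 and 3.57 for Gbp7, and it was 1.13 for Parp14 and 1.001 for Parp9. For Oasl1 the ratio of 2.37 rests on 1 count in that library. This library also had the higher cycling and fibroblast marker sums given above, the latter mostly from Dcn. Its sums of myotube and of myoblast markers were both the lowest of the myotube libraries, the latter sum being mostly Des. The part of these sums in the ratios was not tested. With replicate 1 set aside, replicates 2 and 3 both lay above all myoblast libraries for 18 of the 31 members, against 34.3% of all genes tested. The 14 genes called higher are among the 18, but their calls used these same libraries, so this is no separate check. In the fit without myotube replicate 1, 10 members were called higher, against 20.5% of all genes.

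**Figure D3:**
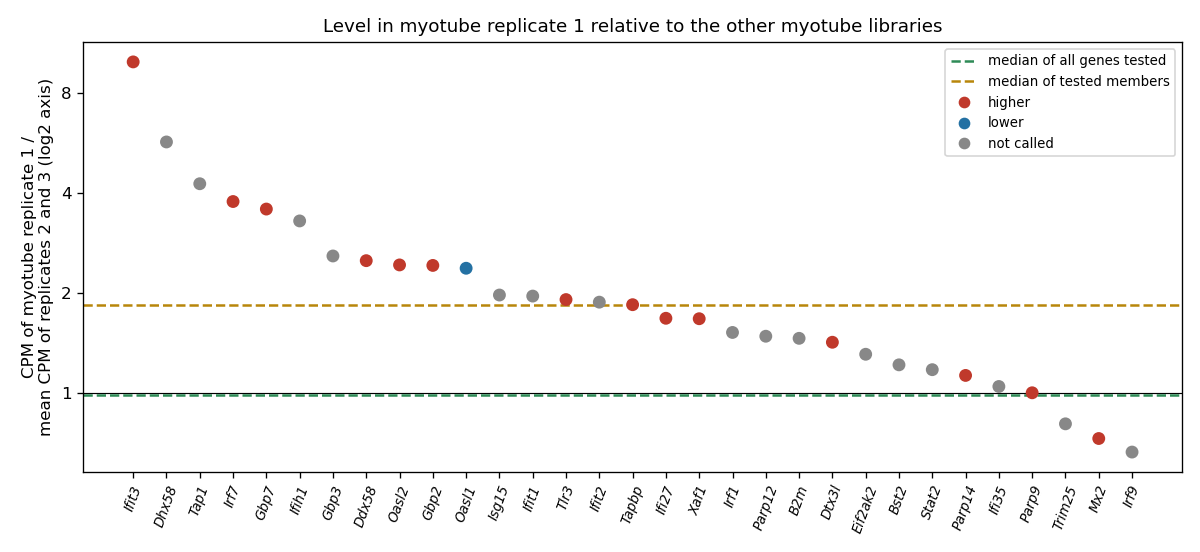
CPM of myotube replicate 1 divided by the mean CPM of myotube replicates 2 and 3, for each tested member on a log2 axis, coloured by call. Dashed lines are the medians of the tested members (1.84) and of all genes tested (0.989), and most points lie above the lower line.

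The rest of the pathway was examined in lists of 131 further genes, of which 91 were tested, and 26 rose and 10 fell. As shares these were 28.6% and 10.99% of the list, beside 20.5% and 19.6% of all genes tested, with a median log2 fold change of 0.30. Without myoblast replicate 2 the list had 16 of 96 tested higher (16.7%, beside 14.8% of all genes), and without myoblast replicate 3 it had 15 of 97 (15.5%, beside 14.6%), so the list's share was then near that of all genes. Without myotube replicate 1 it had 22 higher and 16 lower of 94 (23.4% and 17.0%, beside 20.5% and 21%). Of 11 interferon genes none was tested. Ifnb1, Ifnk, Ifnl2, Ifnl3 and the 5 interferon alpha genes examined had 0 counts in every library. Ifng had 7 counts in myotubes and 0 in myoblasts, and the 95% counting interval of its CPM ratio starts at 2.39. Ifne had 7 and 2 counts, a ratio of 5.80 (95% counting interval 1.10 to 57.2). Both intervals pool the libraries and leave out the spread between them. In myotube replicates 1, 2 and 3, Ifng had 4, 3 and 0 counts and Ifne had 0, 5 and 2.

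Of 5 tested receptor genes 2 were called higher and 0 lower (40% and 0%, beside 20.5% and 19.6% of all genes tested). Both receptor chains for type II interferon rose by a small margin. Ifngr1 was at 61.2, 44.1 and 48.2 CPM in myotubes, against 29.5, 34.6 and 34.3 CPM in myoblasts (log2 fold change 0.64 ± 0.18, adjusted p = 0.0248), and Ifngr2 at 48.9, 40.6 and 48.3 CPM, against 29.2, 33.4 and 25.9 CPM (0.64 ± 0.17, adjusted p = 0.021). Neither pair of groups overlapped. The Ifngr1 call was lost without myotube replicate 3 (adjusted p = 0.0587) or myoblast replicate 1, 2 or 3 (0.0653, 0.0721 and 0.0678), and that of Ifngr2 without replicate 3 of either group (0.0809 in myotubes and 0.0876 in myoblasts). Both missed the threshold with library size alone (0.0502 and 0.0653). The type I chains were not called, with Ifnar1 at 77.1 ± 2.37 CPM in myotubes and 81.1 ± 6.80 CPM in myoblasts (SD, n = 3 each, adjusted p = 0.721). Ifnar2 was at 24.7 ± 5.18 CPM in myotubes and 17.9 ± 1.502 CPM in myoblasts (SD, n = 3 each, adjusted p = 0.0998). Il10rb, a chain shared with other cytokines, was at 13.2 ± 2.70 CPM in myotubes and 12.3 ± 0.827 CPM in myoblasts (SD, n = 3 each, adjusted p = 0.733), and Ifnlr1 had 12 and 8 counts in all.

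Among 9 tested kinases and transcription factors of signalling 1 rose and 1 fell (11.1% each, beside 20.5% and 19.6% of all genes tested). Stat3, which mainly serves the interleukin-6 family, rose by 1.68 ± 0.18, and Irf5 changed by -1.91 ± 0.53 on the log2 scale (SE, adjusted p = 0.000352 and 0.0223). The Irf5 call was lost without myotube replicate 3 (adjusted p = 0.0624) or myoblast replicate 2 or 3 (0.076 and 0.0558). Of 7 tested negative regulators 3 rose and 1 fell (42.9% and 14.3%, again beside 20.5% and 19.6%). The rises were in the feedback inhibitor gene Socs3 at 0.99 ± 0.25, Pias1 at 0.58 ± 0.18 and the mitochondrial protein gene Nlrx1 at 1.06 ± 0.29. The fall was in Socs1, named after its value was seen, the main feedback inhibitor of interferon receptors, at 2.44 ± 1.11 CPM in myotubes and 8.43 ± 0.734 CPM in myoblasts (SD, n = 3 each, log2 fold change -1.78 ± 0.37, adjusted p = 0.00639). The Socs3 call was lost without myotube replicate 2 (adjusted p = 0.0579) or myoblast replicate 2 or 3 (0.06 and 0.0525), and that of Nlrx1 without myotube replicate 2 or 3 (0.0726 and 0.0736) or myoblast replicate 3 (0.0708). Pias1 was lost when any 1 library was left out (adjusted p = 0.0516, 0.0602 and 0.0855 without myotube replicates 1, 2 and 3, and 0.0762, 0.0697 and 0.0794 without myoblast replicates 1, 2 and 3).

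Of 13 tested genes for nucleic acid sensing and adaptors, Ddx60 rose and Cgas and Zc3hav1 fell. These were 7.69% higher and 15.4% lower, both below the 20.5% and 19.6% of all genes tested. Cgas, the sensor of cytosolic DNA, was at 3.79, 3.62 and 4.06 CPM in myotubes, against 17.1, 16.0 and 22.8 CPM in myoblasts (log2 fold change -2.29 ± 0.23, adjusted p = 0.000329). Zc3hav1, the zinc-finger antiviral protein that binds CpG-rich RNA, was at 89.5, 80.2 and 73.2 CPM in myotubes, against 143, 180 and 187 CPM in myoblasts (-1.07 ± 0.18, adjusted p = 0.00267). In both genes every myotube library was below every myoblast library. Ddx60, a helicase gene of the same response, had 51 counts in myotubes and 2 in myoblasts (log2 fold change 5.13 ± 0.69, adjusted p = 0.00101). The CPM ratio of the summed counts was 42.2, with a 95% counting interval of 11.1 to 358 that leaves out the spread between libraries.

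Class I antigen presentation had 4 of 16 tested genes higher and 1 lower (25% and 6.25%, beside 20.5% and 19.6% of all genes), a share of higher calls near the background. H2-T23, which encodes the non-classical class I molecule Qa-1, was at 48.9, 27.2 and 21.97 CPM in myotubes, against 10.4, 13.7 and 7.22 CPM in myoblasts (log2 fold change 1.64 ± 0.35, adjusted p = 0.00772). Tap2, the other transporter subunit, was at 27.8, 12.5 and 10.4 CPM in myotubes, against 6.57, 5.19 and 1.88 CPM in myoblasts (1.88 ± 0.53, adjusted p = 0.0236). The groups were separate for both, with myotube replicate 1 highest. Tap2 was 1.29 without that library (adjusted p = 0.0455) and lost its call without myoblast replicate 2 (adjusted p = 0.0646). H2-D1 rose by 0.90 ± 0.31 on the log2 scale (adjusted p = 0.0476), a call that the replicate block ended (0.81, adjusted p = 0.058). It was also lost without myotube replicate 1 or 2 (adjusted p = 0.0787 and 0.0527) and without myoblast replicate 1, 2 or 3 (adjusted p = 0.122, 0.0862 and 0.134). The gene called lower was Nlrc5, named after its value was seen, a transactivator of class I genes, at 1.25 ± 0.238 CPM in myotubes and 4.52 ± 0.698 CPM in myoblasts (SD, n = 3 each, adjusted p = 0.00447).

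A list of other interferon-induced genes had 15 of 41 tested higher and 5 lower (36.6% and 12.2%, beside 20.5% and 19.6% of all genes). The called genes with the highest mean level were Tor3a, at 1.45 ± 0.16 on the log2 scale (adjusted p = 0.00045), Rnf213, at -0.73 ± 0.22 (adjusted p = 0.0317), and Pnpt1, at -0.96 ± 0.17 (adjusted p = 0.00335). Tor3a encodes a torsin ATPase, Rnf213 a large ubiquitin ligase and Pnpt1 the mitochondrial polynucleotide phosphorylase. The Rnf213 call was lost without myotube replicate 2 or 3 (adjusted p = 0.0868 and 0.103) or myoblast replicate 1 or 3 (0.0735 and 0.085). The other genes of the list called lower, also named after their values were seen, were Slfn9, Slfn8 and Pml. They were at -2.55 ± 0.38, -2.87 ± 0.55 and -0.79 ± 0.23 on the log2 scale (SE, adjusted p = 0.00166, 0.00462 and 0.0251). Their calls were not followed through the alternatives. The list holds 5 further guanylate binding protein genes, named after their values were seen. Gbp4 and Gbp9 rose by 3.16 ± 0.54 and 3.01 ± 0.79 on the log2 scale (SE, adjusted p = 0.00282 and 0.0176), and Gbp10 rose with 65 counts in myotubes and 0 in myoblasts (adjusted p = 0.00139). Gbp9 stood at 2.14 without myotube replicate 1 (adjusted p = 0.0362) and at 3.62 without myoblast replicate 1 (adjusted p = 0.0244), and lost its call without myoblast replicate 2 (adjusted p = 0.0616). Gbp5, with 5 and 4 counts, and Gbp6, with 7 and 0, were not tested.

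**Figure D4:**
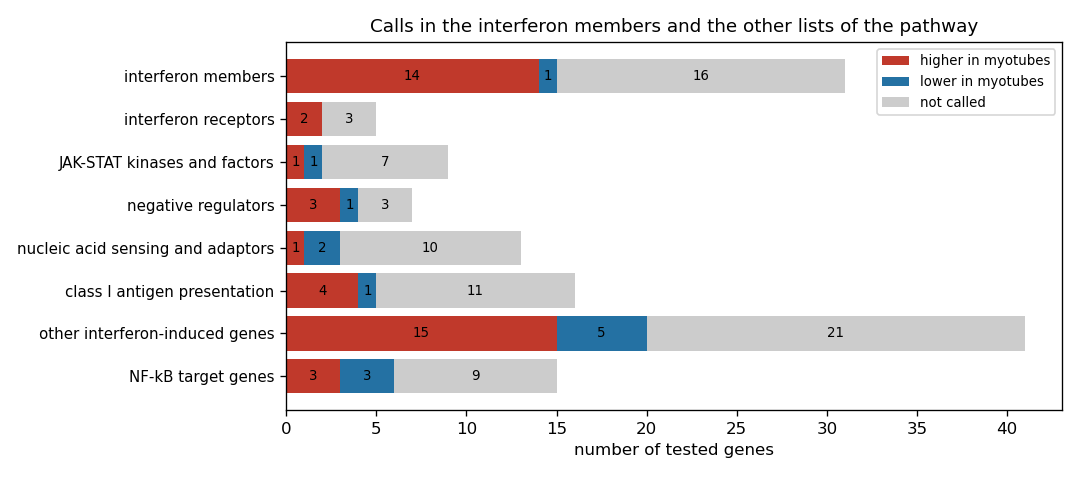
Number of tested genes called higher (red), called lower (blue) or not called (grey) in the interferon members and in each further list, on an axis that starts at 0. The members have 14 higher and 1 lower of 31, and the sensing and adaptor list 1 higher and 2 lower of 13. Of all genes tested, 20.5% were called higher and 19.6% lower.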

How the data were processed

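Per the labels' protocols, a TruSeq Stranded Total RNA Gold kit was used for the C2C12 RNA. The submitters' processing notes name bcl2fastq, STAR 2.5.1b, featureCounts 1.5.1, Salmon 0.12.0, DESeq2 1.18.1 and mm10, without roles. The deposited table holds raw counts per gene with gene lengths, per the file headers. The strand setting of the counting is not given in these sources.

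Counts were tested with edgeR 4.0.16 under R 4.3.3 (TMM scaling, filterByExpr by group, robust quasi-likelihood F-test, no covariate), with Benjamini-Hochberg adjustment over 15932 genes and a threshold of 0.05. SE is the absolute log2 fold change over the square root of F. CPM uses TMM-scaled library sizes. Alternatives were other scalings and filters, DESeq2 1.42.0, limma-voom (limma 3.58.1), a replicate block and each library left out. The fit was tested on simulated data. No replicate pair agreed within sampling noise (lowest chi-square over its degrees of freedom 105.7).

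Same-numbered libraries deviated from their group means together (correlations 0.232, 0.189 and 0.17), so the numbers in the labels were taken as a possible pairing, although myotube replicate 2 correlated more with myoblast replicate 3 (0.358). Counting intervals are 95% exact binomial, cover counting error only, and use counts summed per group.

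Members and lists were chosen with earlier results of these data known. Values in every library are given for called members and for transcription factors and sensors, and further lists name the 3 called genes of highest mean level and all detected ligands and receptors. In the lists, Mb21d1 was matched to Cgas through RefSeq synonyms.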

Additional observations from a re-analysis of the deposited data

How the results depend on the processing

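Of the 15 members called, 10 were called in each of the 13 alternatives that tested them, 9 of these higher: Ddx58, Mx2, Gbp2, Gbp7, Parp9, Parp14, Dtx3l, Ifi27 and Xaf1, besides Oasl1. Where only genes with a mean count of 50 or more were kept, 0 members were called lower by edgeR (0 also at an unadjusted p under 0.05), since Oasl1 was no longer tested. DESeq2 and limma-voom, run with the standard filter, each called 1 lower. Leaving out 1 library at a time gave 9 to 13 members higher, 0 to 1 lower (0 without myoblast replicate 1, where Oasl1 failed the filter) and a median log2 fold change of 0.66 to 1.34. The further pathway list then had 15 to 27 higher and 7 to 16 lower, its lowest shares higher being 15.5% and 16.7% beside 14.6% and 14.8% of all genes. Uncalled genes changed sign when a library was left out, Dhx58 and Tap1 only without myotube replicate 1, with ranges of -0.39 to 1.34 for Dhx58, -0.68 to 1.27 for Ifit1, -0.24 to 0.30 for Ifit2, -0.037 to 0.18 for Eif2ak2, -0.086 to 0.12 for Ifi35, -0.022 to 1.61 for Tap1 and -0.11 to 0.16 for Il10rb. With library size alone Ifi35 was at -0.10 and Il10rb at -0.030, with limma-voom Ifit1 at 0.28 and with the replicate block at 0.22. The cause was not tested. Scaling by library size alone shifted the median of all genes by -0.13 and gave 12 members higher. With the replicate block 14 members were higher and 1 lower, and Tlr3 and H2-D1 lost and Ifih1 gained a call. No other call changed among the tested members and the named pathway genes, with Slfn8, Slfn9 and Pml not followed. Depth limits Mx2, Oasl1, Isg15 and the genes below the filter, which rest on few counts.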

Other observations

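NF-kB drives the other main transcription programme downstream of viral RNA sensors. Of 15 tested NF-kB target genes 3 were higher and 3 lower in myotubes, with a median log2 fold change of -0.51. These shares, 20% each, were near the 20.5% and 19.6% of all genes tested. Relb, a subunit of the non-canonical pathway, rose by 1.34 ± 0.22 on the log2 scale (SE, adjusted p = 0.00236). Nfkb1, which encodes the p105 precursor, was at 98.7 ± 9.78 CPM in myotubes and 158 ± 9.86 CPM in myoblasts (SD, n = 3 each, -0.68 ± 0.16, adjusted p = 0.0122, and 0.0505 without myoblast replicate 2). Tnfaip2 was at -0.51 ± 0.16 (adjusted p = 0.0364), a call lost without myotube replicate 3 (0.141) or myoblast replicate 2 or 3 (0.122 and 0.0614). Whether this list differs from the interferon members was not tested.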
